A study of Mus musculus with 23 samples.

Results

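The bone RNA of female mice without FNDC5 was compared with that of wildtype (WT) females after both had eaten a low-calcium diet. FNDC5 is the membrane protein from which the hormone irisin is cleaved. The comparison takes every library that GEO labels as a female on this diet, which is 2 libraries labelled FNDC5 knockout (KO), of mice 5 and 6, and 3 labelled WT, of mice 16, 17 and 18. These are 5 of the 23 libraries of the series, which covers both genotypes, both sexes and 2 diets. The control diet held 0.6% calcium, and the mice of all groups were 5 months old. Genes were kept where the normalized read count was 10 or more in at least 2 of the 23 libraries, which left 15638 of 21402 genes.

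All 5 mice were C57BL/6 by the labels (C57BL/6J in the study's methods), 5 months old and fed for 2 weeks a diet with 0.01% calcium and 0.4% phosphorus. The KO is global, so FNDC5 was missing from every tissue and not from bone alone, and WT and KO mice were bred from heterozygous parents. By the study's methods, genotyping rested on a stretch of exon 3 that the KO lacks. Total RNA came from the shafts of tibia and femur, once marrow had been flushed out and surface cells digested away, a preparation meant to leave osteocytes. In such bulk RNA, fewer cells of a type and less RNA per cell cannot be told apart.

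Osteocytes are the cells embedded in mineralized bone. When dietary calcium is short, parathyroid hormone rises, and osteocytes and osteoblasts release RANKL, the cytokine that drives the formation of osteoclasts, the cells that resorb bone. Irisin is released mainly by muscle and is known to act on osteocytes through integrins that contain the alpha V chain.

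Recovered reads per library ranged from 7217601 to 18606399 in the WT females on the low-calcium diet, with the lowest in mouse 17, and from 18366412 to 23552692 in the KO females. They ranged from 7217601 to 33352631 over all 23 libraries. The methods of the study state that the percentage of reads mapped to the mouse genome was low in these 3 WT libraries and differed between them, name bacterial reads as a possible reason, and say that the reads were aligned without a filter against them. They call the KO libraries of this comparison not contaminated, and expect no large effect of contamination over the data as a whole. The suspected contamination thus coincides with genotype in this comparison, and its part in the fold changes was not tested. The share of reads that mapped was not analysed here. Within the KO group, the median squared difference between mice over well-covered genes was 3.86 times that of counting alone. It was 5.87 to 12.8 times between pairs of WT mice, so the spread between mice and not the depth limited the precision at such genes.

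The library labelled KO 5 went against its label as a female library. Ddx3y, a helicase gene of the Y chromosome, stood at 1030 normalized counts in it, against 0 to 12.4 in the 10 other female libraries and 2537 to 3350 in the 12 male libraries. Uty, Eif2s3y and Kdm5d, also Y-linked, stood at 672, 505 and 292 normalized counts, while none of the other female libraries exceeded 8.32. Relative to the mean of the 6 males on the low-calcium diet, the 4 genes were at 28.5% to 40.8% in KO 5. Xist, the RNA that coats the inactive X chromosome in females, was at 71440 normalized counts in KO 5 and 106611 in KO 6, and no male library exceeded 843. KO 5 thus held both female and male RNA by these genes, and KO 6 held no more than 3 reads of any of the 4 Y-linked genes. Where this male RNA came from was not tested, nor was whether the library is of a single mouse. Below, KO 5 is called a mouse by its label.

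Fndc5 itself was near the limit of detection in every library. It was at 9.52, 2.85 and 3.57 normalized counts in WT 16, 17 and 18, at 12.4 in KO 5 (11 reads) and at 1.75 in KO 6 (2 reads). KO 5 therefore lay above all 3 WT mice and KO 6 below them. The other 9 KO libraries lay between 0 and 2.69. A count over the whole gene does not check a deletion that spares other exons, and the genotype of KO 5 was not tested. For these reasons most genotype fold changes printed with a p in these Results are also given without the library labelled KO 5. There KO 6 is the only KO mouse and its spread is taken from the other groups. Interaction differences and the fold changes of the closing sections are given with KO 5 included.

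**Figure D1:**
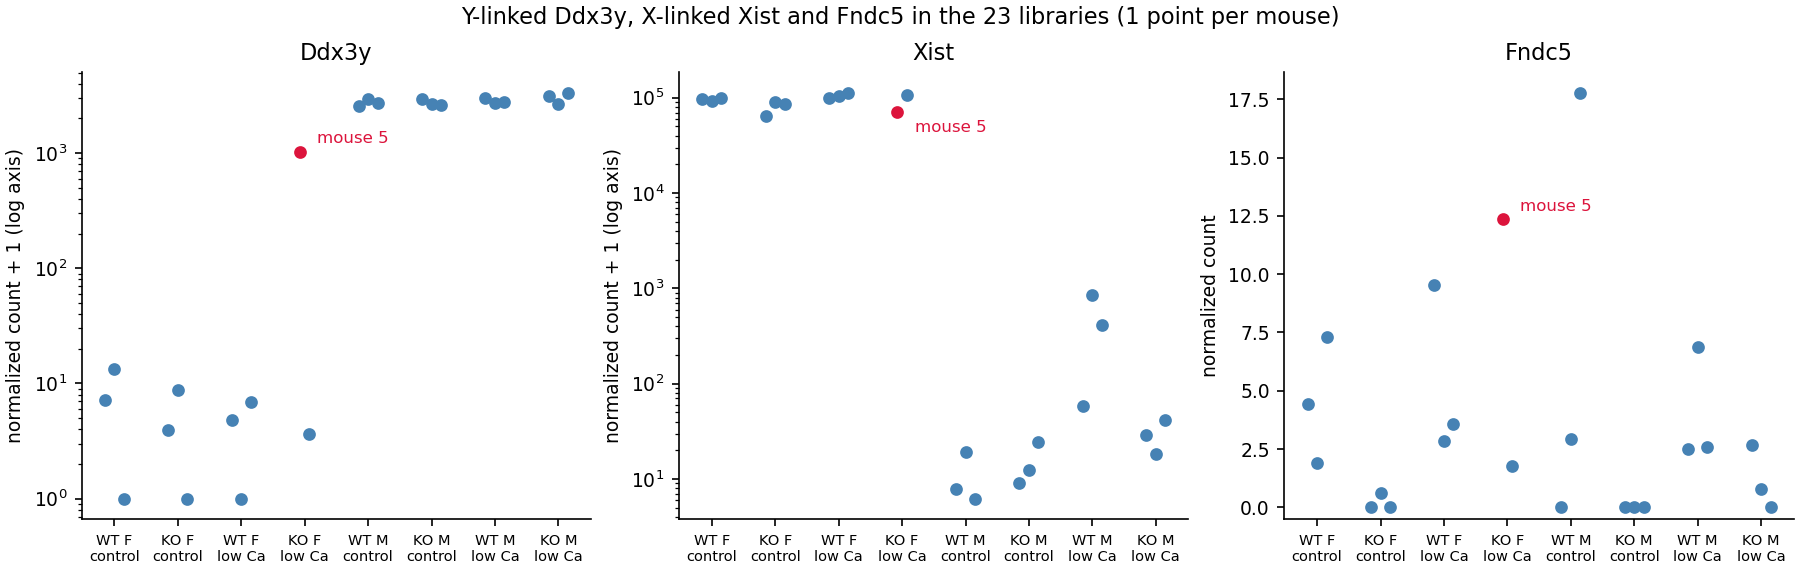
Normalized counts of Ddx3y (left) and Xist (middle), each plus 1 on a log axis, and of Fndc5 (right, linear axis) in the 23 libraries, with 1 point per mouse in 8 groups of sex (F, M), genotype and diet. The library labelled KO 5, in red, lies at 1030 for Ddx3y between the other females (0 to 12.4) and the males (2537 to 3350), and at 12.4 for Fndc5.

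Bone of the KO females held less RNA for RANKL, for 12 of 60 genes that move secreted proteins from the endoplasmic reticulum (ER) to the Golgi, and for B2m, H2-K1 and H2-D1 of MHC class I, which were picked out after their values had been seen. It held more RNA for Gpnmb and Serpina3n. At a limma adjusted p under 0.05, 127 genes were lower in the KO (0.812% of the 15638 tested) and 67 were higher (0.428%). The median log2 fold change was -0.57 among the genes called lower and 0.59 among those called higher, and 24 and 15 of them passed a 2-fold difference. The median over all tested genes was -0.02. Fold changes here are log2 of the normalized count plus 1, KO minus WT, with the standard error (SE) of the fit. In every one of the 194 called genes the 2 KO libraries did not overlap the 3 WT libraries, and KO 6 alone also lay outside the WT range. Over all genes tested, 18.3% had both KO libraries below all WT libraries and 14.2% had both above. For KO 6 alone these shares were 26.5% and 21.2%.

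The number of calls rested on single mice. Without KO 5 limma made 0 calls, with 1680 genes at an unadjusted p under 0.05 against 3262 with it. With KO 5 left out edgeR also made 0 calls and DESeq2 made 44, of which 39 were among the 194. Since KO 6 alone lay outside the WT range in all 194, their direction without KO 5 was fixed and is no support for the calls. Their median log2 fold changes were then -0.54 and 0.60. Limma made 6 calls without KO 6, 10 without WT 16 and 3 without WT 18, but 1916 without WT 17, the shallowest library. The 3 called without WT 18 were Gpnmb, Tmem214 and Ppm1e. Of the 6 called without KO 6, 4 were the Y-linked genes and the others were Gpnmb and Ppm1e. An exact permutation test of 2 mice against 3 has 10 assignments and cannot give a p under 0.1, so the calls rest on variances that limma pooled over all 8 groups. A fit of the 5 libraries alone made 0 calls, with 1804 genes at an unadjusted p under 0.05.

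**Figure D2:**
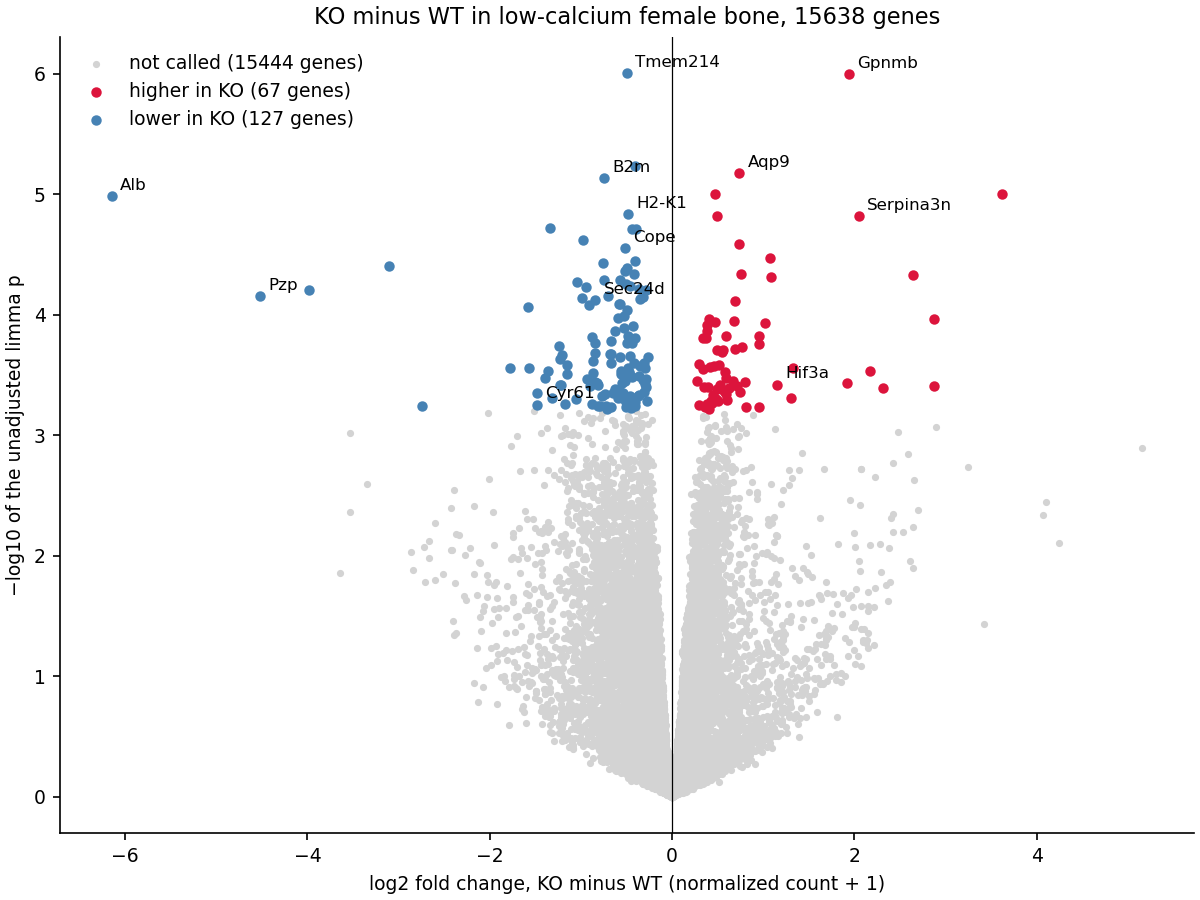
Each point is 1 of 15638 genes, with the log2 fold change (KO minus WT, low-calcium females) on the x axis and the −log10 of the unadjusted limma p on the y axis. The 127 genes called lower are blue and the 67 called higher are red; Gpnmb and Tmem214 lie highest.

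The low-calcium diet is a stimulus for RANKL, so Tnfsf11, its gene, comes first among the named genes. Tnfsf11, at chr14:78277445-78308043 of GRCm38, stood at 598, 473 and 790 normalized counts in WT 16, 17 and 18, and at 219 and 242 in KO 5 and 6. Each KO mouse lay below each WT mouse. The log2 fold change was -1.40 (SE 0.32, limma adjusted p = 0.0442), and -1.32 without KO 5. In the females on the control diet, Tnfsf11 stood at 209 to 275 in WT and 123 to 218 in KO, so the WT mice on the low-calcium diet lay above every other female library. Among the other 7 measured genes of the RANKL system and its macrophage growth factors, none was called. Csf1, the growth factor of macrophages and osteoclast precursors, had a log2 fold change of -0.43 (limma adjusted p = 0.18, -0.42 without KO 5). Tnfrsf11b, which encodes the decoy receptor osteoprotegerin, overlapped between the groups, with 783, 299 and 839 normalized counts in WT and 335 and 412 in KO.

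None of the 29 osteoclast genes was called, against 0.812% of all genes called lower. Acp5, the gene of the osteoclast enzyme TRAP, stood at 15666, 13308 and 8277 normalized counts in WT and at 7786 and 9795 in KO, and the groups overlapped. Ctsk, the collagen-degrading cathepsin of osteoclasts, overlapped too, at 14468, 13880 and 8379 in WT and 8612 and 11387 in KO. Of the list, 7 genes had both KO libraries below all WT libraries, a share near the 18.3% of all genes. They include Nfatc1, the transcription factor of osteoclast formation, with a log2 fold change of -0.49 (limma adjusted p = 0.0742, -0.46 without KO 5), and Atp6v0d2, a proton pump subunit, with -0.74 (limma adjusted p = 0.125, -0.59 without KO 5). The median log2 fold change of the list was -0.19, and -0.09 without KO 5.

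Genes of the mineralized matrix were lower in the KO libraries over most of the list, but few passed the test. Of 24 genes of bone matrix and mineralization, 2 were called lower (against 0.812% of all genes) and none higher. Both KO libraries lay below all WT libraries in 18 (75.0% of the list, against 18.3% of all genes). Serpinf1, which encodes the matrix protein PEDF, stood at 6406, 3578 and 4422 normalized counts in WT and at 2113 and 2095 in KO. Its log2 fold change was -1.15 (SE 0.26, limma adjusted p = 0.0428), and -1.15 without KO 5. Clec11a, which encodes the bone growth factor osteolectin, stood at 1285, 952 and 1520 in WT and 606 and 734 in KO, with a log2 fold change of -0.88 (SE 0.19, limma adjusted p = 0.0368, -0.74 without KO 5).

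Other matrix genes had larger fold changes but wider spread between the WT mice. Bglap, the osteocalcin gene, stood at 4982, 2274 and 3367 normalized counts in WT and at 1351 and 1525 in KO, with a log2 fold change of -1.23 (SE 0.31, limma adjusted p = 0.0522, -1.14 without KO 5). Bglap has a near-identical neighbour, Bglap2, and reads of the pair can be split between them. Alpl, the alkaline phosphatase that frees phosphate for mineral, was at 10663, 7487 and 13997 in WT and 4259 and 4859 in KO, a log2 fold change of -1.19 (SE 0.33, limma adjusted p = 0.0742, -1.09 without KO 5). Sparc, the gene of osteonectin, had -1.03 (limma adjusted p = 0.0588, -1.05 without KO 5). Both KO mice lay below all WT mice for each of these. Ibsp and Spp1, the bone sialoprotein and osteopontin genes, had -0.97 (limma adjusted p = 0.107, -0.83 without KO 5) and -0.59 (limma adjusted p = 0.193, -0.44 without KO 5).

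The type I collagen genes were the most abundant of the collagens and moved together. Col1a1 stood at 806241, 449795 and 738379 normalized counts in WT and at 297728 and 283978 in KO, with a log2 fold change of -1.15 (SE 0.32, limma adjusted p = 0.0742, -1.18 without KO 5). Col1a2 was at 401033, 227761 and 349622 in WT and at 152500 and 145825 in KO, with -1.09 (SE 0.30, limma adjusted p = 0.0719, -1.12 without KO 5). In both, WT 17 was the lowest WT mouse and still above both KO mice. Of 40 collagen chain genes, none was called, 34 had a negative log2 fold change and 22 had both KO libraries below all WT libraries (against 18.3% of all genes). The median was -0.76, and -0.74 without KO 5. Col2a1 and Col11a1 were also in this list, at -1.14 (limma adjusted p = 0.0588, -0.98 without KO 5) and -1.17 (limma adjusted p = 0.0766, -1.17 without KO 5). Postn, the gene of the periosteal matrix protein periostin, was at -1.09 (limma adjusted p = 0.0796, -1.04 without KO 5), with 6679, 4920 and 7995 in WT and 2928 and 3105 in KO.

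Of 34 genes that process or cross-link collagen, 1 was called lower (0.812% of all genes) and 23 had both KO libraries below all WT libraries (18.3% of all genes). The called gene was Ppib, the prolyl isomerase cyclophilin B that helps collagen fold, at 2996, 2846 and 2918 normalized counts in WT and 2111 and 2084 in KO. Its log2 fold change was -0.48 (SE 0.11, limma adjusted p = 0.0428, -0.49 without KO 5). Loxl2 and Loxl4, lysyl oxidase-like enzymes, had -1.32 (limma adjusted p = 0.0679, -1.20 without KO 5) and -1.18 (limma adjusted p = 0.0565, -1.08 without KO 5). Serpinh1, the collagen chaperone HSP47, had -0.97 (limma adjusted p = 0.0839, -0.92 without KO 5). Mmp15, a membrane-bound matrix metalloproteinase, stood at 147, 59.8 and 125 in WT and at 39.3 and 55.2 in KO, with -1.13 (SE 0.39, limma adjusted p = 0.118, -0.89 without KO 5).

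Of 18 osteocyte genes, none was called and 9 had both KO libraries below all WT libraries, against 18.3% of all genes. Their median log2 fold change was -0.55, and -0.60 without KO 5. Sost, the gene of the Wnt inhibitor sclerostin and a marker of mature osteocytes, stood at 15856, 3678 and 6403 normalized counts in WT and at 6763 and 7801 in KO, inside the WT range. Dmp1, a matrix protein of osteocytes, overlapped too, at 30455, 9556 and 20080 in WT and 10427 and 12587 in KO. Phex, which helps control phosphate, was at 13137, 5160 and 9254 in WT and 4577 and 5001 in KO, with a log2 fold change of -0.84 (limma adjusted p = 0.125, -0.78 without KO 5). Among the WT mice, mouse 16 was the highest and mouse 17 the lowest at all 3. Both KO mice lay below all WT mice for Gja1, the gap junction protein that links osteocytes, at 12558, 6000 and 12051 in WT and 4922 and 5538 in KO, with a log2 fold change of -0.89 (limma adjusted p = 0.0815, -0.81 without KO 5). The high counts of Sost, Dmp1 and Phex in all 5 libraries are those of bone tissue, and the erythroid genes given below were abundant in them too.

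Erythroid genes lay in the other direction beside these bone genes, though none was called. All 20 erythroid genes had a positive log2 fold change and 16 had both KO libraries above all WT libraries (80.0% of the list, against 14.2% of all genes). The summed normalized count of the list was 182492, 226177 and 145769 in WT 16, 17 and 18 and 256186 and 250351 in KO 5 and 6. Alas2, the enzyme that starts heme synthesis in red cell precursors, stood at 15250, 19154 and 12843 in WT and 22927 and 23094 in KO. Its log2 fold change was 0.57 (limma adjusted p = 0.102, 0.57 without KO 5). All 30 cell division genes had positive values as well. Of them, 1 was called higher (0.428% of all genes) and 15 had both KO libraries above all WT libraries (14.2% of all genes). Their sums were 154290, 173174 and 135563 in WT and 186834 and 178889 in KO. Among the 5 libraries the erythroid sum was lowest and the collagen sum second highest in WT 18, and the erythroid sum was highest and the collagen sum second lowest in KO 5. The other marrow lists had medians near that of all genes, at -0.14 for B lymphocyte, -0.01 for macrophage and 0.13 for neutrophil genes. The part that erythroid RNA has in the bone gene values was not tested.

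**Figure D3:**
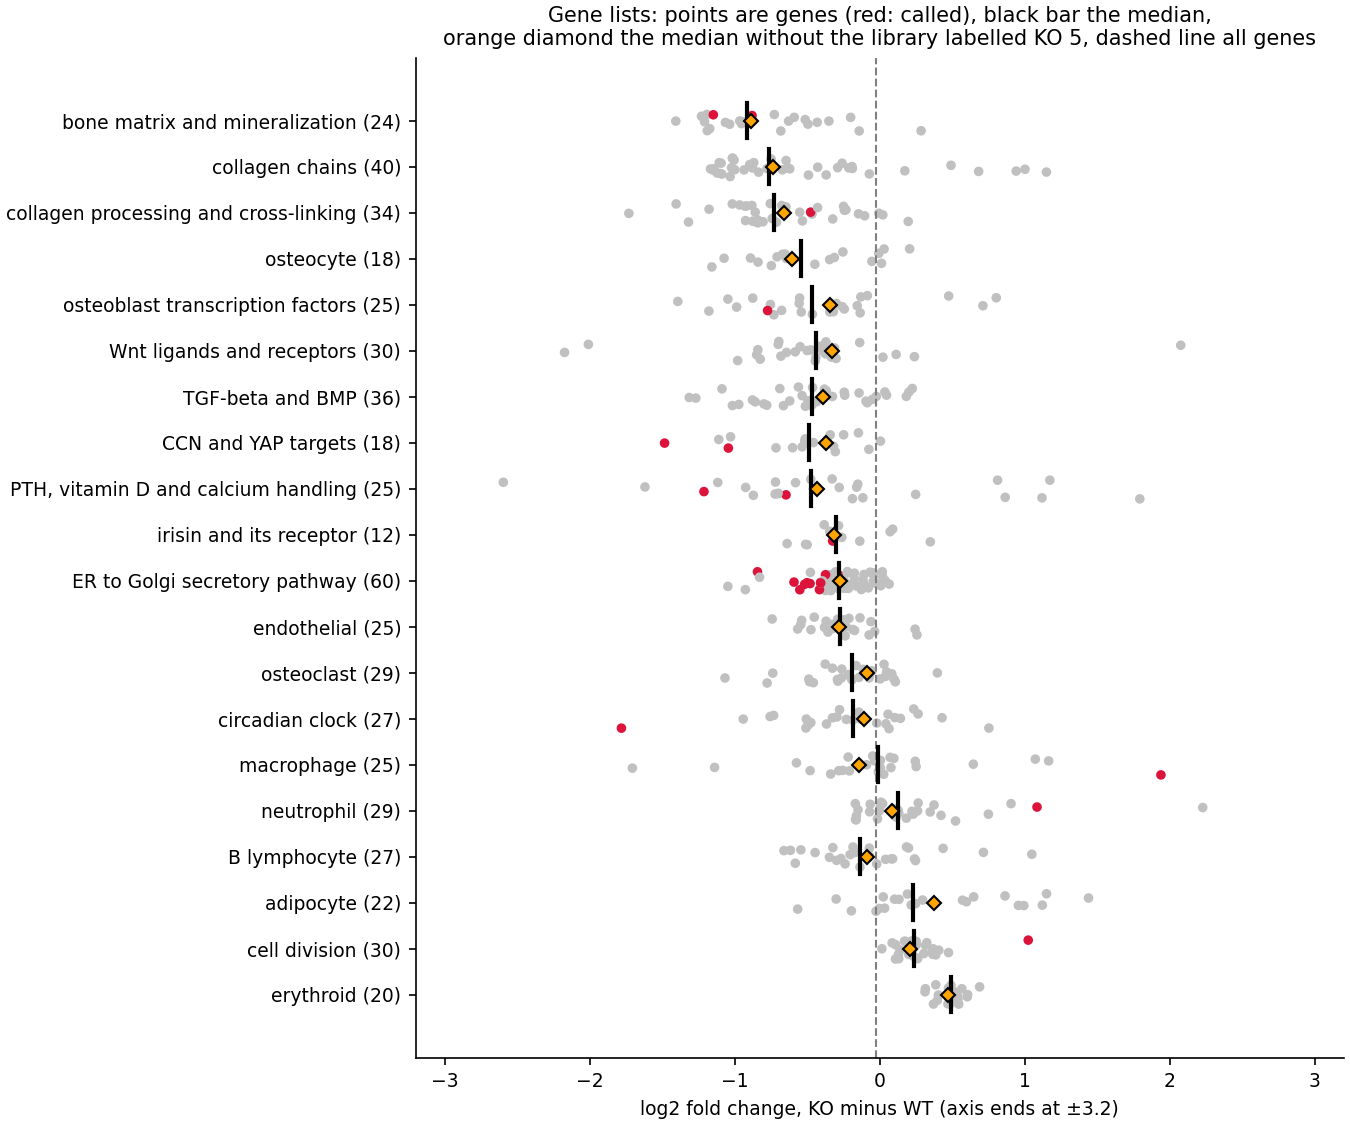
Log2 fold changes (KO minus WT, low-calcium females) of the genes in 20 lists, with the number tested in parentheses. Points are genes and called genes are red; the black bar is the median, the orange diamond the median without the library labelled KO 5, and the dashed line the median of all genes (-0.02). Among these 20 lists the medians run from -0.91 for bone matrix to 0.49 for erythroid genes. The hepatocyte list, with a median of -1.21, is not drawn.

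The ER to Golgi secretory pathway held more called genes than any other list. It carries collagen and other secreted proteins, in COPII vesicles toward the Golgi and in COPI vesicles back to the ER. Of its 60 genes, 12 were called lower (against 0.812% of all genes) and none higher. Both KO libraries lay below all WT libraries in 45 genes (18.3% of all genes), and KO 6 alone did in 46 (26.5% of all genes). The fold changes were small, with a median of -0.28, and -0.27 without KO 5. The summed normalized count of the list was 187116, 181547 and 201928 in WT and 157847 and 157218 in KO.

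Coat proteins made up several of these calls. Copg1, a COPI subunit, stood at 2310, 2017 and 2365 normalized counts in WT and at 1688 and 1667 in KO, with a log2 fold change of -0.41 (SE 0.07, limma adjusted p = 0.0204, -0.42 without KO 5). Cope, Arcn1 and Copa, also COPI subunits, had -0.52, -0.28 and -0.30. Arcn1 had the narrowest groups, at 5759, 5764 and 5712 in WT and 4748 and 4704 in KO. Sec24d, a COPII subunit that selects cargo, stood at 3350, 2584 and 3939 in WT and at 1852 and 1764 in KO, with -0.84 (SE 0.17, limma adjusted p = 0.0281, -0.88 without KO 5) and -0.88 without KO 5. Sec31a, of the outer COPII coat, had -0.50 (SE 0.12, limma adjusted p = 0.0479, -0.53 without KO 5).

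The other 6 calls of the list spanned the route. Sec61a1, the core of the channel through which new proteins enter the ER, stood at 4582, 4348 and 4986 normalized counts in WT and at 3501 and 3441 in KO, with a log2 fold change of -0.42 (SE 0.08, limma adjusted p = 0.0272, -0.43 without KO 5). Kdelr2, the receptor that returns ER proteins, had -0.59, and Lman1, a cargo receptor, had -0.48. Surf4, another cargo receptor, had -0.37 and Gorasp2, a Golgi stacking protein, had -0.41. Creb3l2, a transcription factor known to switch on COPII genes in mouse cartilage, had -0.55 (limma adjusted p = 0.0442, -0.61 without KO 5). Its relative Creb3l1, which acts on secretory genes and collagen in bone, stood at 2872, 2057 and 4064 in WT and 1470 and 1325 in KO, with -1.05 (limma adjusted p = 0.077, -1.12 without KO 5). The smallest limma adjusted p of all genes that fell (0.00787) was that of Tmem214, an ER membrane protein outside the list. Tmem214 stood at 1314, 1234 and 1370 in WT and at 938 and 912 in KO, with a log2 fold change of -0.50 (SE 0.07), and -0.52 without KO 5.

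The promoters of 3 called secretory genes are shown because they hold a short element, which the other 5 matched called genes of the list lack. The letters ACGTGG form the core of elements that factors of the unfolded protein response and of the CREB3 family are known to bind. They were searched on both strands, where the reverse reads CCACGT, in RefSeq promoters of GRCm38.p6 that run from 250 bases before to 50 after the start of the gene. A promoter was matched by symbol for 11586 of the 15638 genes, taking the first one listed. ACGTGG was in 11% of these (1277), in 24 of the 49 matched promoters of the secretory list, and in 3 of the 8 of its called genes, a smaller share than in the whole list. It was in 26 of 101 matched promoters of all genes called lower and in 0 of 51 of those called higher. The element partly overlaps the E-box CACGTG where a C precedes it, which was not so in the 3 promoters below. Arcn1, Kdelr2, Lman1 and Sec61a1 were not matched. The capitals mark ACGTGG or its reverse.
Sec24d, chr3:123267246-123267545, plus strand: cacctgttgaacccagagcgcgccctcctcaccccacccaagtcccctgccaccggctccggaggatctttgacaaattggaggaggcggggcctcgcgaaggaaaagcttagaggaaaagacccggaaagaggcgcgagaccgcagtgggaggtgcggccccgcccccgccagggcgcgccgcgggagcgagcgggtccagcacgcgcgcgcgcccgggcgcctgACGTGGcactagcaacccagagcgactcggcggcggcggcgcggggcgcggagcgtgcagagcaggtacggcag
Sec31a, chr5:100416185-100416484, minus strand: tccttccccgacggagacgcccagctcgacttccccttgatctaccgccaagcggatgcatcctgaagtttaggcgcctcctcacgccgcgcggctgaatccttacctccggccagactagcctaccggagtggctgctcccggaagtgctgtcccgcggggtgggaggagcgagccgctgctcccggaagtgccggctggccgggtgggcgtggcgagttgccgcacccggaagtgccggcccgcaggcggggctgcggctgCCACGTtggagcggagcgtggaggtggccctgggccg
Copg1, chr6:87887690-87887989, plus strand: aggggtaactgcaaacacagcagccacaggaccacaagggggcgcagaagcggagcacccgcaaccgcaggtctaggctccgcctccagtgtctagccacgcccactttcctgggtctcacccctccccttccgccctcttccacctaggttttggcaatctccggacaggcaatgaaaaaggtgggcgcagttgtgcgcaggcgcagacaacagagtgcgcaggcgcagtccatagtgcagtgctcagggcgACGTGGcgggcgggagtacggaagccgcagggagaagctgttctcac
In Sec24d the element began 24 bases before the start, and in Sec31a and Copg1 it lay just after it. A match is a run of letters and not a measured binding site.

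Genes of MHC class I, which shows peptides to T cells, come next, and no list of them was tested. B2m, the light chain shared by all class I molecules, stood at 35426, 30675 and 31111 normalized counts in WT and at 19234 and 19392 in KO, with a log2 fold change of -0.74 (SE 0.12, limma adjusted p = 0.0204), and -0.74 without KO 5. The females on the control diet ranged from 27753 to 33330 and the males on both diets from 21460 to 31379, so both KO females on the low-calcium diet lay below all other 21 libraries. H2-K1, a heavy chain, was at 6111, 7316 and 6578 in WT and 4556 and 4953 in KO, with -0.49 (SE 0.09, limma adjusted p = 0.0215, -0.42 without KO 5). H2-D1, another heavy chain, was at 5014, 5413 and 5097 in WT and 3912 and 3967 in KO, with -0.39 (SE 0.07, limma adjusted p = 0.0219, -0.38 without KO 5). The heavy chains are near-identical over parts of their length, so reads can be split between them. Genes of peptide loading did not follow as a group, with log2 fold changes of -0.20 in Tap1, 0.02 in Tap2 and -0.12 in Tapbp, none of them called. The interferon list had 0 calls in 36 genes and a median of -0.12.

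The promoters of both heavy chain genes carry a known class I element, the NF-kappa-B site with the core GGGATTCCC, searched on both strands. It was in 0.406% of the matched promoters, and in 2 of the 101 of genes called lower, which are the pair below. The capitals mark it.
H2-K1, chr17:34000298-34000597, minus strand: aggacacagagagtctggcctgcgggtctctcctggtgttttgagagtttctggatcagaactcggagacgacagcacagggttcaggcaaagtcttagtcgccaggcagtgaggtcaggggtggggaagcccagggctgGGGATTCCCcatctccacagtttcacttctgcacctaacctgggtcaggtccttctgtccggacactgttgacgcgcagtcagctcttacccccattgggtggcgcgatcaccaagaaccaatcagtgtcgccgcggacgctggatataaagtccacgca
H2-D1, chr17:35262844-35263143, plus strand: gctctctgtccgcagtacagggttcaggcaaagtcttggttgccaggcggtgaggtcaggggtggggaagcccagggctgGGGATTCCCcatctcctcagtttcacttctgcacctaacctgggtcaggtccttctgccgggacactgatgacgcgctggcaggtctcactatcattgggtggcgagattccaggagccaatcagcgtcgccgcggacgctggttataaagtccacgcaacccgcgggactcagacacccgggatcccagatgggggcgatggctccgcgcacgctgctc
The element began 110 bases before the start in H2-K1 and 170 bases before it in H2-D1.

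Among genes tied to cell shape and mechanical load, 4 were called lower. They were 2 of 18 CCN genes and YAP targets and 2 of 22 genes for actin and contractile proteins (against 0.812% of all genes), and the other members did not pass the test. Cyr61, a matricellular protein induced by load, stood at 11055, 9650 and 13195 normalized counts in WT and at 3878 and 4140 in KO, with a log2 fold change of -1.48 (SE 0.36, limma adjusted p = 0.0483), and -1.44 without KO 5. Its relative Ctgf had -1.11 (limma adjusted p = 0.0916, -0.91 without KO 5). Frmd6, an upstream part of the Hippo pathway, stood at 1824, 1308 and 2648 in WT and 859 and 935 in KO, with -1.04 (SE 0.21, limma adjusted p = 0.0272, -0.98 without KO 5). Of the actin genes, Mical2, which oxidizes actin, and Fhod3, a formin that builds filaments, were called, at -1.24 and -1.23. Mical2 stood at 655, 496 and 822 in WT and 248 and 299 in KO.

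Of 25 genes for parathyroid hormone, vitamin D and calcium handling, 2 were called lower (0.812% of all genes) and 10 had both KO libraries below all WT libraries (18.3% of all genes). The 3 with both above (14.2% of all genes) were Casr, the calcium-sensing receptor, at 1.79, Trpv5, a calcium channel, at 1.12, and the calcium pump Atp2b4 at 0.25, none of them called. Both called genes encode parts of voltage-gated calcium channels. Cacnb3, a beta subunit, stood at 587, 413 and 630 normalized counts in WT and at 204 and 259 in KO, with a log2 fold change of -1.21 (SE 0.27, limma adjusted p = 0.0404, -1.04 without KO 5). Cacna1h, the pore of a T-type channel, was at 209, 245 and 215 in WT and at 122 and 165 in KO, with -0.65 (SE 0.15, limma adjusted p = 0.0458), and -0.43 without KO 5. Pth1r, the receptor of parathyroid hormone, stood at 2152, 1567 and 2682 in WT and 1059 and 1224 in KO, with -0.87 (limma adjusted p = 0.083, -0.77 without KO 5). Vdr, the vitamin D receptor, had -0.72 (limma adjusted p = 0.0771, -0.63 without KO 5). For both receptors the KO mice lay below all WT mice.

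Parts of the integrin receptor through which irisin acts were measured well. Itgav, the alpha V chain, stood at 8385, 7048 and 7829 normalized counts in WT and at 5097 and 5864 in KO, with a log2 fold change of -0.50 (SE 0.13, limma adjusted p = 0.0619, -0.40 without KO 5). Itgb5, the beta 5 chain, was at 1920, 1869 and 1879 in WT and at 1362 and 1540 in KO, with -0.38 (SE 0.16, limma adjusted p = 0.185, -0.29 without KO 5). Of the 12 genes listed for irisin and its receptor, 8 had both KO libraries below all WT libraries (18.3% of all genes). Among the 12, 1 was called lower (against 0.812% of all genes). It was Cd81, a tetraspanin that associates with integrins, at 4887, 4060 and 4994 in WT and 3713 and 3678 in KO, with -0.32 (SE 0.08, limma adjusted p = 0.0442, -0.33 without KO 5).

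Among Wnt genes, ligands had wide fold changes at low counts. Wnt2b stood at 49.5, 25.6 and 42.8 normalized counts in WT and at 5.61 and 13.1 in KO, with a log2 fold change of -2.01 (SE 0.58, limma adjusted p = 0.0776), and -1.46 without KO 5. Wnt10a lay in the other direction, at 1.90, 5.70 and 7.13 in WT and 25.8 and 18.4 in KO, with 2.08 (limma adjusted p = 0.0742, 1.84 without KO 5). None of the 30 ligands and receptors was called. Tcf7, a transcription factor of the pathway and itself a Wnt target, was called, with 630, 650 and 776 in WT, 382 and 417 in KO and a log2 fold change of -0.77 (SE 0.19, limma adjusted p = 0.0465, -0.71 without KO 5). Kremen1, which helps the inhibitor DKK1, was called too, at -0.71 (limma adjusted p = 0.049, -0.60 without KO 5). It was 1 of 15 secreted antagonists and their partners (against 0.812% of all genes called lower). Tcf7 was also the 1 call among 25 transcription factors of the osteoblast (against 0.812% of all genes called lower). In that list Runx2 and Sp7 had -0.55 (limma adjusted p = 0.0841, -0.55 without KO 5) and -0.68 (limma adjusted p = 0.125, -0.65 without KO 5).

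The clock list had 1 call in 27 genes, a gene called lower (against 0.812% of all genes). Npas2, a partner of the clock factor BMAL1, stood at 116, 96.9 and 133 normalized counts in WT and at 48.3 and 21.9 in KO, with a log2 fold change of -1.78 (SE 0.41, limma adjusted p = 0.0424), and -2.33 without KO 5. Nr1d1, the clock repressor REV-ERB alpha, was at 1567, 909 and 2209 in WT and 764 and 762 in KO, with -0.94 (limma adjusted p = 0.0742, -0.94 without KO 5). Per3 had 0.43 (limma adjusted p = 0.0621, 0.47 without KO 5) and Clock had -0.51 (limma adjusted p = 0.08, -0.44 without KO 5). The hours at which the mice were killed were not given in the sources used here.

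**Figure D4:**
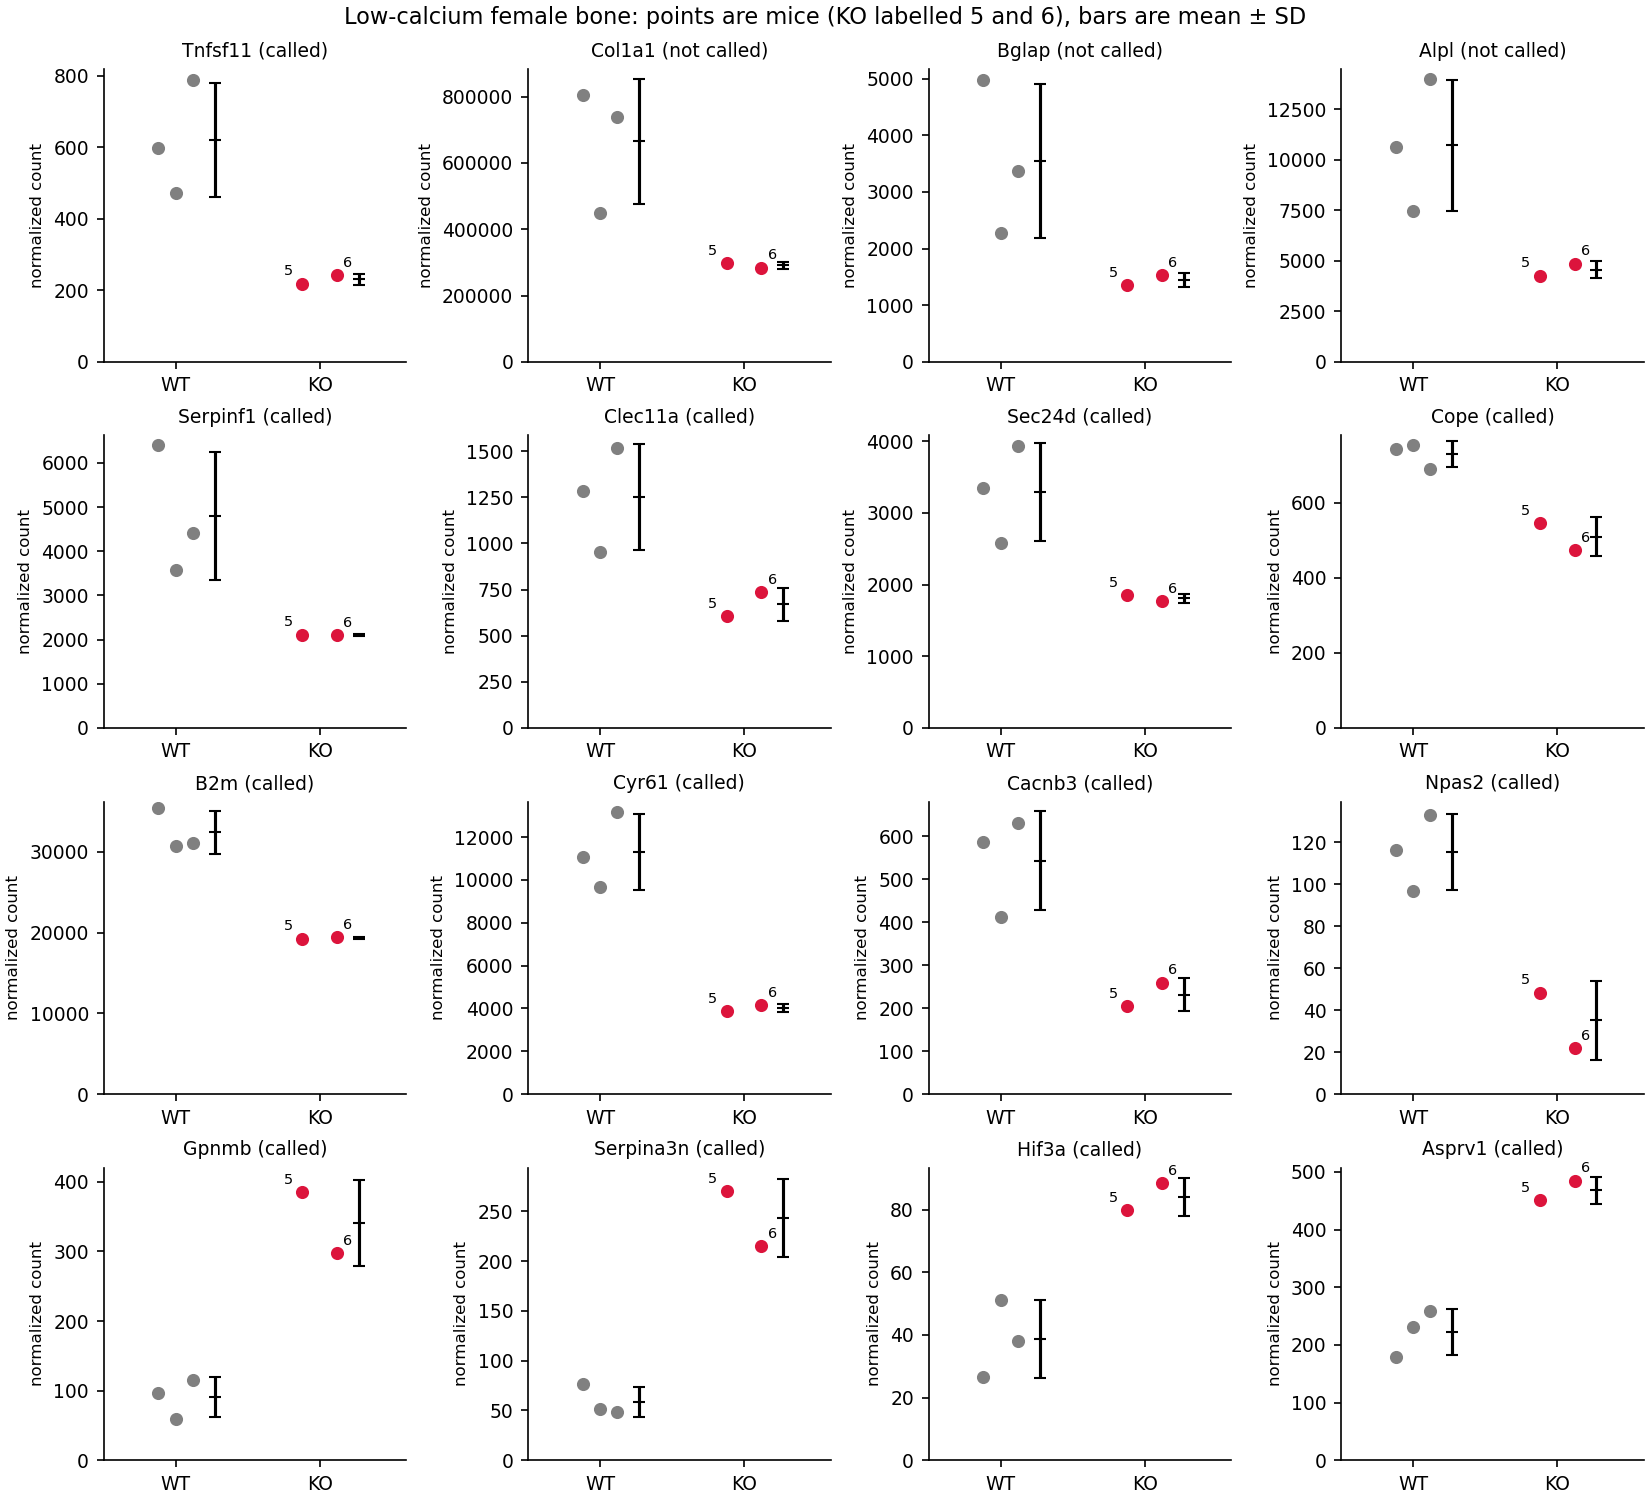
Normalized counts of 16 genes in the 3 WT (grey) and 2 KO (red, labelled 5 and 6) females on the low-calcium diet; points are mice and bars show the mean ± SD, with every axis from 0. In all 16 panels the KO points lie outside the WT points, as for Tnfsf11 at 219 and 242 against 473 to 790.

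Of the genes that rose, Gpnmb had the smallest adjusted p. It encodes a glycoprotein of macrophages and osteoclasts and lies at chr6:49036546-49070929 of GRCm38. Gpnmb stood at 97.1, 59.8 and 115 normalized counts in WT and at 385 and 298 in KO, with a log2 fold change of 1.94 (SE 0.28, limma adjusted p = 0.00787), and 1.75 without KO 5. It was called in 13 of 16 alternatives, the most of the 103 named genes followed through them. On the control diet WT females had 140 to 315 and KO females 503 to 564, and the males of both diets had 685 to 1455. Males thus lay above females on either diet. The part of male RNA in the Gpnmb value of KO 5 was not tested. Of 25 macrophage genes, Gpnmb was the 1 called (against 0.428% of all genes called higher). With it 4 lay above all WT mice without overlap and 3 below (14.2% and 18.3% of all genes). Cd163, a scavenger receptor, had a log2 fold change of 1.17 (limma adjusted p = 0.151, 1.11 without KO 5), Slc40a1, the iron exporter, had 0.65 (limma adjusted p = 0.0666, 0.59 without KO 5), and Fcrls, a marker of resident macrophages, had -1.71 (limma adjusted p = 0.0593, -1.60 without KO 5).

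Serpina3n, a secreted protease inhibitor that rises with glucocorticoids and inflammation, stood at 76.2, 51.3 and 48.8 normalized counts in WT and at 271 and 215 in KO. The log2 fold change was 2.05 (SE 0.36, limma adjusted p = 0.0215), and 1.89 without KO 5. The 6 females on the control diet had 39.8 to 85.1 and the 12 males 233 to 1861, so KO 5 and KO 6 both lay above every other female. Of 69 genes outside the sex chromosomes that were higher in males on the control diet (limma adjusted p under 0.05 and more than 2-fold), 15 lay above all WT females in KO 5 and 16 did in KO 6 (for KO 6 alone, 21.2% of all genes did). Of 167 that were higher in females by the same rule, 103 lay below all WT females in KO 5 and 96 did in KO 6 (26.5% of all genes for KO 6). The male-higher genes include Gpnmb and Serpina3n, and the female-higher genes include Tnfsf11, Alpl, Bglap, Postn and Col2a1. Many of the 69 male-higher genes are liver transcripts, such as Alb, Pzp, Apob, Fgb, Ttr and Ahsg, so these counts are not of bone genes alone. Alb and Pzp stood at 0 in both KO libraries and could not lie above the WT females. The shares of all genes for KO 5 alone were not computed. The part of such sex-related levels in the genotype values was not tested.

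The other large rises were at low or moderate counts. Hif3a, a hypoxia-inducible factor subunit, stood at 26.7, 51.3 and 38 normalized counts in WT and at 79.7 and 88.4 in KO, with a log2 fold change of 1.15 (SE 0.27, limma adjusted p = 0.0442, 1.22 without KO 5). Asprv1, a protease found in neutrophils, was at 179, 231 and 258 in WT and 451 and 485 in KO, with 1.08 (SE 0.21, limma adjusted p = 0.0272, 1.14 without KO 5). Prokr1, a prokineticin receptor, had 1.07, Fmo2, a monooxygenase, had 0.96, and Pnp2, a purine phosphorylase, had 0.95. Erdr1 had 1.32, at 973, 1060 and 1551 in WT and 2496 and 3425 in KO. Erdr1 lies in the region that X and Y share and has copies, so its count is uncertain. Slc16a14 and Dclk3 rose by 2.88 each, Cbln1 by 2.17, Nhlrc4 by 1.92 and Myo15 by 1.30 on the log2 scale, all from WT counts under 50. Gsdmc4 was at 0 in all WT libraries and at 4.49 and 3.50 in KO, at least 2.29-fold higher against a floor of 3 reads over the WT group.

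Of 30 cell division genes, Aunip, a partner of the Aurora A kinase, was the 1 called higher (against 0.428% of all genes). Aunip stood at 93.3, 74.1 and 71.3 normalized counts in WT and at 197 and 133 in KO, with a log2 fold change of 1.02 (SE 0.22, limma adjusted p = 0.0331, 0.74 without KO 5). Single called genes outside the list, chosen after their values were seen and not tested as a group, were Gmnn, which blocks a repeat of replication within a cycle, at 0.60, and Tacc3, of the spindle, at 0.41. The cell division sums given with the erythroid genes were higher in both KO libraries, and their part in these calls was not tested.

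The liver transcripts Alb and Pzp stood at 0 in both KO libraries, and so did Serpina3k and Serpina1d. Alb, the albumin gene, stood at 91.4, 65.5 and 57.1 normalized counts in WT and at 0 in both KO libraries. Taking 3 reads over the KO group as the floor, Alb was at least 48.3-fold lower. Pzp, another secreted liver protein, was at 5.71, 48.4 and 35.7 in WT and 0 in KO, at least 20.3-fold lower. Serpina3k and Serpina1d, neither called, were at least 26.2-fold and 3.22-fold lower. Alb and Pzp were called (limma adjusted p = 0.0204 and 0.0281), as the 2 calls among 34 hepatocyte genes (against 0.812% of all genes called lower). Of these 34, 29 had negative and 4 had positive log2 fold changes. The median of the list was -1.21, and -1.24 without KO 5. Both KO libraries lay below all WT libraries in 8 (18.3% of all genes) and above in 1 (14.2% of all genes). Apob, a lipoprotein gene of the liver, was at 28.6, 22.8 and 14.3 in WT and 0 and 2.63 in KO. On the control diet Alb ranged from 8.94 to 46.1 in WT females and from 4.94 to 149 in KO females, and so varied between mice of a group. Low-calcium males had 0 to 1.86 and 1 control-diet WT male had 8560. The source of the liver RNA was not tested.

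Markers of other cells that a bone shaft can hold had few calls. Of 29 neutrophil genes 1 was called higher, which was Asprv1 (against 0.428% of all genes). In 9 both KO libraries lay above all WT libraries (14.2% of all genes), and the median log2 fold change was 0.13. None of 22 adipocyte genes was called and 5 lay above without overlap (14.2% of all genes), with a median of 0.23. Scd1, which desaturates fatty acids, was at 19347, 11567 and 8612 normalized counts in WT and 22419 and 32702 in KO, with 1.12 (limma adjusted p = 0.239, 1.39 without KO 5). Of 25 endothelial genes none was called and 23 had negative values. Without overlap, 4 lay below all WT libraries and 2 above, near the 18.3% and 14.2% of all genes. Of 27 B lymphocyte genes, 24 skeletal muscle genes and 20 chondrocyte genes none was called, and the medians were -0.14, 0.13 and -0.59. Of 25 genes of periosteum and tendon none was called, and Tnc, the matrix protein tenascin C, had -0.87 (limma adjusted p = 0.0534, -0.80 without KO 5).

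Several of the largest falls belong to none of these groups. Cpz, a carboxypeptidase that binds Wnt proteins, stood at 1082, 496 and 738 normalized counts in WT and at 234 and 255 in KO, with a log2 fold change of -1.59 (SE 0.33, limma adjusted p = 0.0289, -1.52 without KO 5). Tfpi2, a protease inhibitor of the matrix, was at 448, 291 and 829 in WT and 183 and 158 in KO, with -1.48. Shc2, an adaptor of receptor kinases, was at 352, 282 and 442 in WT and 173 and 112 in KO, with -1.34 (SE 0.24, limma adjusted p = 0.0219, -1.65 without KO 5). Ephb2, an ephrin receptor, had -1.32 and Nupr1, a stress-induced nuclear protein, had -0.91 (limma adjusted p = 0.0442, -0.98 without KO 5). Zcchc5, Slfnl1, Sdcbp2 and Lingo3 were called lower from WT levels of 9.51 to 136 normalized counts.

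To ask whether the genotype difference in these females was particular to their diet, it was set against that of the 6 females on the control diet in an interaction test. This test called 2 genes (0.0128% of 15638), with 2634 at an unadjusted p under 0.05. Ergic1, a protein that shuttles between ER and Golgi, stood at 992, 994 and 1074 normalized counts in WT and 761 and 746 in KO on the low-calcium diet. On the control diet it was at 798, 884 and 776 in WT and 982, 997 and 987 in KO. The genotype differences were -0.44 and 0.27 on the log2 scale, and the difference between them was -0.71 (SE 0.11, limma adjusted p = 0.0227). The predicted gene 5830415F09Rik had differences of 0.59 and -0.66, which differed by 1.25 (SE 0.21, limma adjusted p = 0.043).

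Against males on the same diet, the interaction test called 1 gene (0.00639% of 15638), with 2118 at an unadjusted p under 0.05. It was Tmem214, whose genotype difference was -0.50 in females and 0.12 in males (difference -0.62, SE 0.10, limma adjusted p = 0.0462). All 3 interaction calls were lost without KO 5. For Tnfsf11, the genotype difference was -0.64 in control-diet females and -0.11 in low-calcium males. For Gpnmb it was 1.36 and 0.35, and for B2m 0.12 and -0.10. These differences from the low-calcium females did not pass the interaction tests.

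The direction of the called genes was also read in the other groups of sex and diet, which hold separate mice. Of the 127 genes called lower, 72 were also lower in the KO among control-diet females (56.7%), 52 among low-calcium males (40.9%) and 72 among control-diet males (56.7%). Over all genes these shares were 50.9%, 49.6% and 50.7%. Of the 67 called higher, 19, 26 and 30 were also higher (28.4%, 38.8% and 44.8%), against 49.0%, 50.2% and 49.3% of all genes.

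**Figure D5:**
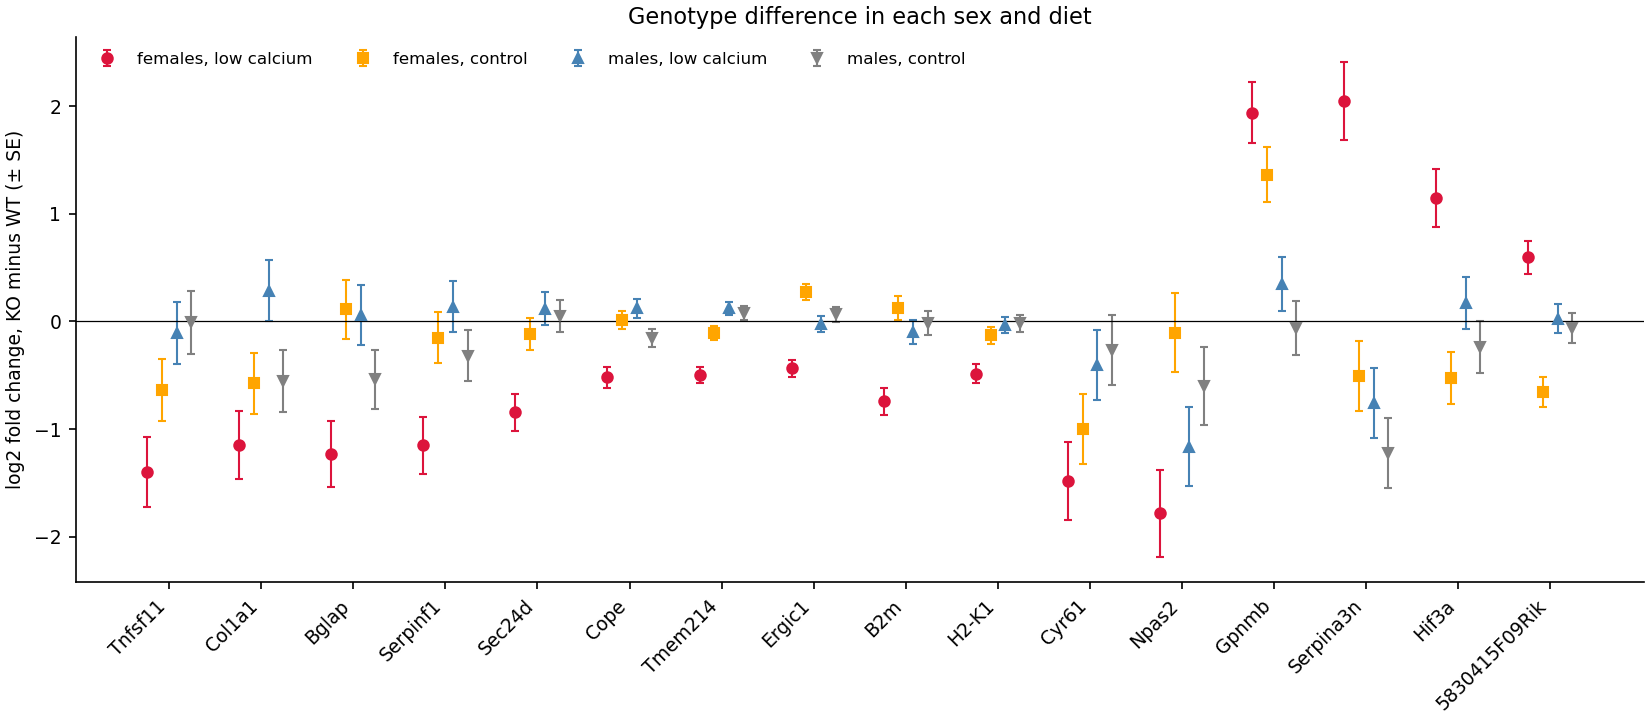
Log2 fold change (KO minus WT, ± SE of the limma fit) of 16 genes in low-calcium females (red circles), control-diet females (orange squares), low-calcium males (blue triangles) and control-diet males (grey triangles). Ergic1 is at -0.44 in the low-calcium females and 0.27 in the control-diet females, and Serpina3n is at 2.05 in the low-calcium females and at -0.50, -0.76 and -1.22 in the other 3 groups.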

How the data were processed

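The authors deposited 1 table of normalized read counts over 21402 genes for 23 bone libraries, 1 per mouse by the labels. By the study's methods, paired-end reads were checked with FastQC 0.11.5, aligned to mm10 with STAR 2.7.10a, counted per gene by strand with featureCounts, uniquely mapped reads only, and divided by DESeq2 size factors. Which gene models were counted was not given in the sources used here. Each library's deposited signal steps (normalized counts in multiples of 1 read's worth) gave back whole reads for 100% of values within 0.01 reads, and their totals are the depths given. Gene symbols of 2 genes occur more than once and 27 had been turned into dates, and such genes cannot be told by name. A KO female of the control diet that the authors set aside was not analysed here.

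Genes with 10 or more normalized counts in at least 2 libraries were tested. Log2 of the normalized count plus 1 was fitted with limma 3.58.1 (R 4.3.3; lmFit, eBayes with a mean trend) to 8 group means, and KO was contrasted with WT within the low-calcium females. The genotype by diet and genotype by sex contrasts came from the same fit. Genes were called at a Benjamini-Hochberg adjusted p under 0.05 over all 15638 genes. By the labels the groups hold separate mice, so p-values measure the spread between libraries taken as mice. For KO 5, which held female and male RNA, this was not tested. Alternatives were edgeR 4.0.16 and DESeq2 1.42.0 on recovered reads, library weights, quantile normalization, a pseudocount of 5, no filter, the study's thresholds (p under 0.01 and log2 fold change over 1), the compared groups alone, each mouse left out, and WT 16 and 17 left out. The fits without KO 5 in edgeR, in DESeq2 and with weights were added after seeing the data. The steps were checked on simulated data.

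Named genes were those the study examined, the integrin genes of irisin, the 15 largest called rises and 15 largest called falls without overlap (predicted genes, small RNAs, sex-linked genes and receptor segments left out), and up to 6 per gene list with the smallest adjusted p. Genes, lists and comparisons were chosen with earlier results of these data known. Fold changes of genes at 0 in a group were set against 3 reads over that group, which covers counting error only. Positions are GRCm38 by symbol. Figures were drawn with Python 3.11.15 and matplotlib 3.10.9.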

Additional observations from a re-analysis of the deposited data

Results flagged for a closer look

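The genotype difference of 3 genes differed between groups by an interaction test in limma. Ergic1 differed between diets in females by -0.71 on the log2 scale (SE 0.11, limma adjusted p = 0.0227), lower in the KO on the low-calcium diet and higher on the control diet in every mouse. The predicted gene 5830415F09Rik differed between diets in the other direction by 1.25 (SE 0.21, limma adjusted p = 0.043), at 314, 390 and 322 normalized counts in WT and 519 and 510 in KO on the low-calcium diet and at 412, 352 and 453 in WT and 263, 244 and 260 in KO on the control diet. Tmem214 differed between the sexes on the low-calcium diet by -0.62 (SE 0.10, limma adjusted p = 0.0462). No call of the 3 was made without the library labelled KO 5. No group held 4 mice or more, so single mice were not tested for standing apart.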

How the results depend on the processing

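No paired analysis was possible because each mouse number occurs once and no groups share one. The 194 calls in the low-calcium females (67 higher, 127 lower) became 193 with a pseudocount of 5, 196 in edgeR and 207 and 159 with the study's thresholds in limma and in DESeq2. Quantile normalization gave 289, of which 176 were higher and 113 lower, which turned the balance of directions; it moved the median over all genes from -0.02 to 0.03. The count was 122 without the filter, 990 in DESeq2 (301 higher, 689 lower), 1896 with library weights, 0 in the groups alone and 2224 without WT 16 and 17. Leaving out 1 mouse gave 0 to 1916. Without KO 5 it was 0 in edgeR, with 1764 genes at an unadjusted p under 0.05, 44 in DESeq2 and 599 with weights. Among the 5 libraries the weights were lowest for WT 17 (0.303) and WT 18 (0.285). The cause of these shifts was not tested. The 2 diet calls became 4 without the filter, 65 with quantile normalization, 593 in DESeq2, 1744 with weights, 0 in the groups alone, 1107 without WT 16 and 17 and 136 with the study's thresholds, and 0 to 848 with 1 mouse left out. The 1 sex call became 0 with quantile normalization, 262 in DESeq2, 1860 with weights, 1188 without WT 16 and 17 and 221 with the study's thresholds, and 0 to 918 with 1 mouse left out. Of 103 named genes followed through the 16 alternatives run, Acp5 and Ctsk, neither called, changed sign, to 0.077 and 0.24 without WT 16 and 17. No other of the 103 did. Fndc5 and Sost were not among the 103. Fndc5 had a log2 fold change of 0.089, and -1.05 without KO 5. Depth limits low genes, since 3 reads over the KO group are 1.48 normalized counts.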

Other observations

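Some gene groups not described above held few or no calls. Of 36 genes of TGF-beta and BMP signalling none was called, 31 had negative log2 fold changes and 13 had both KO libraries below all WT libraries (18.3% of all genes), with a median of -0.47. Bmp1, which trims procollagen, was at 5909, 4037 and 7625 normalized counts in WT and 3072 and 3176 in KO (-0.86, limma adjusted p = 0.106). None of 33 genes for matrix proteases and their inhibitors was called, 12 lay below without overlap (18.3% of all genes) and the median was -0.47. None of 16 small leucine-rich proteoglycans was called. Biglycan, Bgn, was at 35134, 20407 and 31214 in WT and 15873 and 16350 in KO (-0.81, limma adjusted p = 0.0822). Of 31 glucocorticoid-responsive genes 2 were called higher (0.428% of all genes), 14 lay below without overlap (18.3% of all genes) and 4 above (14.2% of all genes). Fkbp5, a classic target, had 0.40 and Sgk1, another, -0.69, neither called (limma adjusted p = 0.105 and 0.112). Of 28 genes of hypoxia and glycolysis Hif3a alone was called (against 0.428% of all genes called higher), while Hif1a had -0.48 (limma adjusted p = 0.0842). None of 21 heat shock genes was called, and none of 24 immediate early genes, with medians of 0.07 and -0.28.

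Several called genes with narrow groups belong to none of the lists and were chosen after their values were seen. Aqp9, a channel for water and glycerol, was at 491, 530 and 419 normalized counts in WT and 796 and 799 in KO (0.74, limma adjusted p = 0.0204). Gtf2e2, a subunit of the general transcription factor TFIIE, was at 417, 422 and 439 in WT and 588 and 610 in KO (0.49, limma adjusted p = 0.0215). Sirt2, a deacetylase, was at 1325, 1199 and 1224 in WT and 970 and 916 in KO (-0.40, limma adjusted p = 0.0272).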
